A study of Homo sapiens with 12 samples.

Results

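Ceruloplasmin and 9 other genes of cellular iron handling were followed across 4 human cancer cell lines, each as a control and with added wild type or mutant *SIVA*. The 10 genes were *CP*, *TFRC*, *STEAP3*, *SLC11A2*, *LCN2*, *FTH1*, *FTL*, *SLC40A1*, *HAMP* and *IREB2*, taken by name from a table of 57187 genes. They were chosen by role but also selected on measured values, the differences of *CP* and of other members between these same lines and conditions, so those values are given as a description. Of the 10 genes, 9 passed the filter on low counts that left 17211 genes for the fits, and *HAMP* did not.

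RNA sequencing covered 12 libraries, 1 for each line and condition. The breast cancer lines were MDA-MB-231 and HCC1954, and the ovarian cancer lines were OVCAR8 and SKOV3 (OVAR-8 and SKOV-3 in the labels). The control is called EV here, after the empty vector the paper names, although the labels call it parental with treatment None. *SIVA-WT* cells carried a vector with wild type *SIVA*, the gene of an apoptosis-inducing protein, and *SIVA-D160N* cells carried the mutant with asparagine in place of aspartate. The transfectants were stable polyclonal cultures obtained by lipofection of a linearized vector and selection with hygromycin, and all lines grew in RPMI-1640 with fetal bovine serum. Neither the age of the cultures nor repeat cultures are described in the labels.

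Total counts ran from 35791455 to 45890398 per library, and levels are given as CPM, the counts scaled to a common library size after TMM adjustment. At this depth 3 counts, taken as the limit for a gene with no counts, are worth 0.0664 to 0.0856 CPM. Ratios within a line compare 1 library with 1 library, have no replicate check, and carry exact 95% binomial intervals that cover counting error only. *SIVA1* had 0 counts in the HCC1954 EV library, where the other 3 EV libraries had 1272 to 2419, and it was higher in both transfectants than in EV in all 4 lines. The main differences within HCC1954 are therefore also given between *SIVA-D160N* and *SIVA-WT*, which leaves that EV library out. HCC1954 carried the epithelial genes *CDH1* (695 to 816 CPM) and *EPCAM* (206 to 248 CPM), and *PAX8*, a marker of ovarian epithelial tumors, was at 61.1 to 76.4 CPM in OVCAR8 and 230 to 243 CPM in SKOV3. *PAX8* reached at most 3.43 CPM in the breast lines.

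Cells take up iron bound to transferrin through the transferrin receptor, reduce it in the endosome and release it into the cytosol, where ferritin stores what is not used. Ferroportin lets iron out of the cell, ceruloplasmin oxidizes it so that transferrin can bind it, and hepcidin closes ferroportin. When iron is scarce, iron regulatory proteins bind hairpins called iron-responsive elements in the messenger RNA, which stabilizes the transferrin receptor message and blocks translation of ferritin.

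The element sequences are shown because they join members of opposite roles. A pattern of C, then 5 bases, CAGTGN and 5 bases that pair with the first 5, with G-T pairs allowed, was searched on the sense strand of the untranslated regions of GENCODE transcripts (release v44lift37). Each hit is printed as 27 bases with the loop in capitals. Positions are those of the first capital and count from 1 at the 5′ end of the transcript. The 5′ untranslated regions of both ferritin chains and of ferroportin (*SLC40A1*) held 1 element each, at position 45 in *FTH1*, 39 in *FTL* and 110 in *SLC40A1*. The 3′ untranslated region of *TFRC* held 4, at positions 3301, 3705, 3770 and 3817.
FTH1: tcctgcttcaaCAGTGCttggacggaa
FTL: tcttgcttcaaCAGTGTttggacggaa
SLC40A1: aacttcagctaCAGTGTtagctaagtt
TFRC, position 3301: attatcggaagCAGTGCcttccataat
TFRC, position 3705: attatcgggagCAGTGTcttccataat
TFRC, position 3770: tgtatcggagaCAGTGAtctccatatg
TFRC, position 3817: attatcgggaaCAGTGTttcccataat

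The pattern was present in the 5′ region of 16 of 19075 genes searched (0.0839%) and in the 3′ region of 121 of 19449 (0.622%). Among the other iron genes followed here, *ALAS2* held it in the 5′ region and *TF* in the 3′ region. The remaining 6 members had no match to these letters, which says nothing of elements of another form.

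*CP*, the copper-containing ferroxidase of plasma (ENSG00000047457, GRCh38 chromosome 3, positions 149162414 to 149221829), was a gene of a single line here. In HCC1954 the EV library held 305 CPM, the *SIVA-WT* library 368 CPM and the *SIVA-D160N* library 99.6 CPM, from 12722, 15867 and 3490 counts. In MDA-MB-231 it had 14, 9 and 8 counts in the same order, in OVCAR8 4, 5 and 2, and in SKOV3 1, 0 and 0. The HCC1954 levels therefore lay above every library of the other lines, whose highest was 0.310 CPM, and the order of the other 3 lines rests on 14 counts or fewer.

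Within HCC1954, *CP* was 3.06-fold lower in *SIVA-D160N* than in EV (95% counting interval 2.95 to 3.18) and 3.70-fold lower than in *SIVA-WT* (3.57 to 3.84). *SIVA-WT* was 1.21 times EV (1.18 to 1.24). The low library was thus that of the mutant, whichever of the other HCC1954 libraries it was set against. Over the 4 lines, the fitted log2 fold change of *CP* was -1.53 (SE 0.23) in *SIVA-D160N* vs EV, 0.16 (SE 0.21) in *SIVA-WT* vs EV and -1.69 (SE 0.23) in *SIVA-D160N* vs *SIVA-WT*. The first and the second share the EV libraries. *CP* was lower in *SIVA-D160N* than in EV in 4 of 4 lines, but 3 of the 4 differences are between counts of 14 or fewer, and without HCC1954 the gene did not pass the filter on low counts.

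*LCN2*, lipocalin 2, which binds iron-loaded siderophores (ENSG00000148346, chromosome 9, positions 128149453 to 128153453), had the same single-line pattern. In HCC1954 the EV library held 296 CPM, the *SIVA-WT* library 217 CPM and the *SIVA-D160N* library 199 CPM. In the other lines the counts were 0 to 1 in MDA-MB-231, 2 to 7 in OVCAR8 and 7 to 14 in SKOV3. Unlike *CP*, *LCN2* in HCC1954 was highest in EV and had nearly equal values in both transfectants, 1.49-fold lower in *SIVA-D160N* (1.45 to 1.54) and 1.36-fold lower in *SIVA-WT* (1.33 to 1.40) than in EV. The difference between both transfectants was 1.09-fold (1.06 to 1.13).

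Some marker genes differed between the same HCC1954 libraries. In such bulk RNA, fewer cells of a type and less RNA per cell cannot be told apart. *PECAM1*, best known from endothelium and platelets, was at 62.8, 60.2 and 32.6 CPM in EV, *SIVA-WT* and *SIVA-D160N*, and *VIM*, the mesenchymal filament gene vimentin, was at 95.6, 161 and 290 CPM. The epithelial keratins were also highest in the mutant, *KRT8* at 2866, 2746 and 3800 CPM and *KRT18* at 1925, 1966 and 2784 CPM. Other epithelial genes were not, with *EPCAM* at 248, 206 and 234 CPM. *CDH1* was lowest in the mutant, at 807, 816 and 695 CPM. *ERBB2*, the receptor gene amplified in this line, was lowest there, at 9223, 7697 and 5736 CPM. The 7 markers of other cell types followed here (*PTPRC*, *CD14*, *LYZ*, *PECAM1*, *ALB*, *APOA1* and *HBB*) summed to 63.3, 61.0 and 33.1 CPM in these libraries and to 0.262 to 2.08 CPM in the other 9. *PECAM1* made up nearly all of that sum, while *HBB* had 0 counts in all 12 libraries and the liver gene *ALB* at most 1 count in HCC1954. The part of these differences in the *CP* values was not tested.

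**Figure D1:**
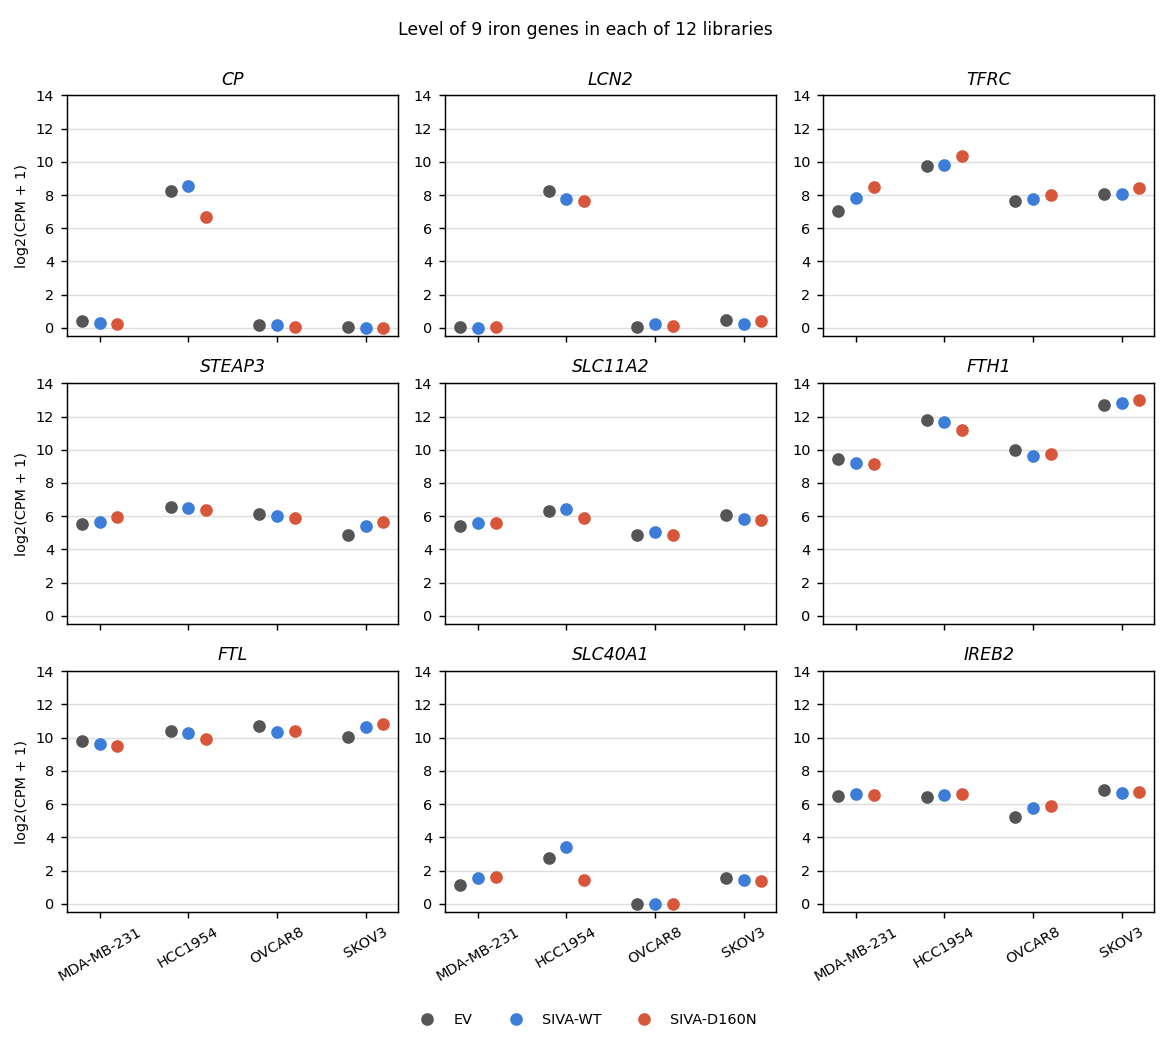
Level of 9 iron genes in each of the 12 libraries, as log2(CPM + 1) on the vertical axis, with the 4 cell lines on the horizontal axis and 1 point per library colored by condition. *CP* and *LCN2* stand high in HCC1954 alone, *SLC40A1* is at 0 in the 3 OVCAR8 libraries, and *FTH1* and *TFRC* reach their highest levels in SKOV3 and HCC1954.

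*TFRC*, the transferrin receptor through which most dividing cells import iron (ENSG00000072274, chromosome 3, positions 196049284 to 196082090), was higher in *SIVA-D160N* than in EV in all 4 lines. In MDA-MB-231 the EV, *SIVA-WT* and *SIVA-D160N* libraries held 129, 223 and 364 CPM. In HCC1954 the values were 874, 886 and 1312 CPM. The OVCAR8 libraries were at 195, 217 and 257 CPM, and those of SKOV3 at 266, 265 and 339 CPM. *SIVA-D160N* was the highest library in each line. HCC1954 lay above the other 3 lines, MDA-MB-231 spanned both ovarian lines, and SKOV3 lay above OVCAR8.

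The *TFRC* level in *SIVA-D160N* was 2.83 times that of EV in MDA-MB-231 (2.74 to 2.92), 1.5 times in HCC1954 (1.48 to 1.52), 1.32 times in OVCAR8 (1.28 to 1.36) and 1.28 times in SKOV3 (1.24 to 1.31). Against *SIVA-WT* it was 1.63, 1.48, 1.18 and 1.28 times in the same order. Wild type *SIVA* came with a higher value in MDA-MB-231 (1.73 times EV) and values close to EV in HCC1954 (1.01) and SKOV3 (0.997). The fitted log2 fold change was 0.70 (SE 0.16) in *SIVA-D160N* vs EV, 0.22 (SE 0.16) in *SIVA-WT* vs EV and 0.48 (SE 0.16) in *SIVA-D160N* vs *SIVA-WT*. Without MDA-MB-231 the first value was 0.45, and without HCC1954 it was 0.74. Of all 17211 genes, 6.85% were higher in *SIVA-D160N* than in EV in 4 of 4 lines and 8.34% lower.

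*STEAP3*, the endosomal reductase that turns ferric into ferrous iron (ENSG00000115107, chromosome 2, positions 119223834 to 119265652), was of the same order of size in all lines. It was at 45.6, 48.3 and 60.9 CPM in MDA-MB-231, 91.6, 88.1 and 83.5 CPM in HCC1954, 67.9, 64.8 and 59.4 CPM in OVCAR8, and 28.2, 42.4 and 49.7 CPM in SKOV3, in EV, *SIVA-WT* and *SIVA-D160N*. It was thus higher in the mutant than in EV in MDA-MB-231 and SKOV3 and lower in the other lines. The largest of these ratios was 1.76 in SKOV3 (1.63 to 1.90), where *SIVA-WT* was also 1.5 times EV. The fitted log2 fold change in *SIVA-D160N* vs EV was 0.22 (SE 0.15).

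*SLC11A2*, the importer DMT1 that carries ferrous iron out of the endosome (ENSG00000110911, chromosome 12, positions 50952263 to 51028886), was at 41.3, 47.3 and 47.3 CPM in MDA-MB-231 and at 78.4, 85.5 and 59.2 CPM in HCC1954. OVCAR8 was lowest of the 4 lines at 27.8, 32.4 and 28.4 CPM, and SKOV3 was at 66.3, 57.1 and 54.5 CPM. The HCC1954 mutant library was again the low one of its line, 1.32-fold below EV and 1.44-fold below *SIVA-WT*. The fitted log2 fold change was -0.11 (SE 0.11) in *SIVA-D160N* vs EV and -0.19 (SE 0.11) in *SIVA-D160N* vs *SIVA-WT*.

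Per length of transcript, the ferritin chains were the most abundant members in the mean of every line, although *TFRC* exceeded *FTL* in CPM in the *SIVA-D160N* library of HCC1954. *FTH1*, the heavy chain with the ferroxidase site (ENSG00000167996, chromosome 11, positions 61964285 to 61967634), was at 706, 587 and 576 CPM in MDA-MB-231, 3482, 3228 and 2371 CPM in HCC1954, 1022, 783 and 847 CPM in OVCAR8, and 6703, 7191 and 8153 CPM in SKOV3. The 4 ranges did not overlap, so the order SKOV3, HCC1954, OVCAR8, MDA-MB-231 held in every library. In *SIVA-D160N*, *FTH1* was 1.47-fold lower than EV in HCC1954 (1.46 to 1.48), 1.23-fold lower in MDA-MB-231 and 1.21-fold lower in OVCAR8, and 1.22 times EV in SKOV3. Against *SIVA-WT* it was 1.36-fold lower in HCC1954 (1.35 to 1.37). The values of *SIVA-WT* lay on the same side of EV in all 4 lines. The fitted log2 fold change was -0.21 (SE 0.13) in *SIVA-D160N* vs EV.

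*FTL*, the light chain that helps the iron core form (ENSG00000087086, chromosome 19, positions 48965309 to 48966879), showed the same signs line by line. It was at 910, 777 and 737 CPM in MDA-MB-231, 1327, 1234 and 954 CPM in HCC1954, 1651, 1303 and 1357 CPM in OVCAR8, and 1054, 1591 and 1853 CPM in SKOV3. The line ranges overlapped, except that MDA-MB-231 lay below all others. In SKOV3 *FTL* was 1.76 times EV in *SIVA-D160N* (1.74 to 1.78) and 1.51 times EV in *SIVA-WT*, while in the other 3 lines it was 1.22-fold to 1.39-fold lower in *SIVA-D160N* than in EV. Against *SIVA-WT* the mutant of HCC1954 was 1.29-fold lower in *FTL* (1.28 to 1.31). With values on both sides, the fitted log2 fold change was -0.07 (SE 0.18).

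The balance of the ferritin chains lay in a separate range in each line, with a single library per condition. Per kilobase of transcript, the ratio of *FTH1* to *FTL* was 0.547 to 0.566 in MDA-MB-231, 1.80 to 1.90 in HCC1954, 0.435 to 0.452 in OVCAR8 and 3.19 to 4.61 in SKOV3. Condition changed it little except in SKOV3, where EV had 4.61 and both transfectants had 3.27 and 3.19. Ferritin has many near-identical pseudogenes, between which reads could be split. The 25 rows named as *FTH1* pseudogenes held 0.110% to 0.211% as many counts as *FTH1*, and 16 such rows of *FTL* held 0.0226% to 0.183% as many as *FTL*.

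The ratio of *TFRC* to *FTH1* set the import gene against the storage gene within a library. Per kilobase it was 0.0437, 0.0910 and 0.152 in EV, *SIVA-WT* and *SIVA-D160N* of MDA-MB-231, and 0.0602, 0.0659 and 0.133 in HCC1954. In OVCAR8 it was 0.0458, 0.0666 and 0.0729, and in SKOV3 it was 0.00951, 0.00885 and 0.00998. The mutant library had the highest ratio in each line, with the widest gap to EV in MDA-MB-231 and the narrowest in SKOV3, where both genes were higher than in EV.

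**Figure D2:**
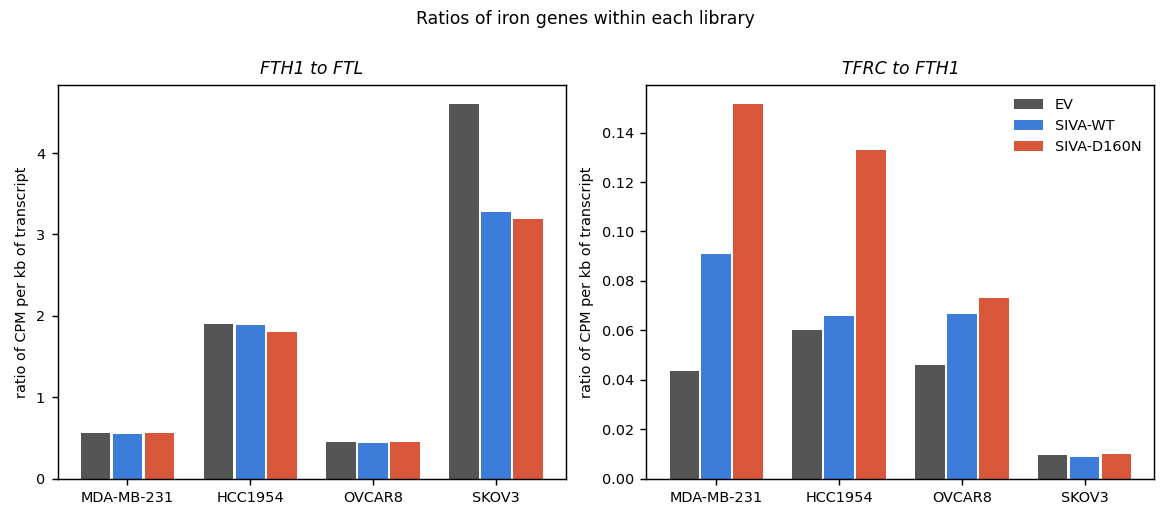
Ratio of *FTH1* to *FTL* (left) and of *TFRC* to *FTH1* (right) within each library, as CPM per kilobase of transcript, with the lines on the horizontal axis and 1 bar per library colored by condition. The left ratio separates the lines, with SKOV3 at 3.19 to 4.61, and the right ratio is highest in *SIVA-D160N* in every line, with SKOV3 under 0.01 throughout.

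*SLC40A1*, ferroportin, the only known iron exporter of animal cells (ENSG00000138449, chromosome 2, positions 189560590 to 189580786), was low wherever it was found. It had 56, 78 and 87 counts in MDA-MB-231 (1.24, 1.97 and 2.11 CPM), 243, 414 and 59 counts in HCC1954 (5.83, 9.61 and 1.68 CPM), and 75, 75 and 67 counts in SKOV3 (1.99, 1.68 and 1.65 CPM). OVCAR8 had 0 counts in all 3 libraries, which allows at most 0.0822 CPM. HCC1954 reached the highest values, although its mutant library lay within the range of MDA-MB-231.

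In HCC1954 *SLC40A1* followed *CP*. The *SIVA-D160N* library was 3.46-fold lower than EV (2.60 to 4.68) and 5.71-fold lower than *SIVA-WT* (4.34 to 7.63), and *SIVA-WT* was 1.65 times EV (1.40 to 1.94). In MDA-MB-231 the value of the mutant was on the other side, 1.71 times EV (1.21 to 2.43), and in SKOV3 the interval of the ratio, 0.588 to 1.17, held 1. The fitted log2 fold change in *SIVA-D160N* vs EV was -0.33 (SE 0.49) over the 4 lines and 0.24 without HCC1954, so its sign rests on that line.

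*HAMP*, the gene of hepcidin (ENSG00000105697, chromosome 19, positions 35282528 to 35285143), is mainly made by hepatocytes. It had 1, 0 and 2 counts in HCC1954, 1 count in the *SIVA-D160N* library of SKOV3 and 0 counts in the other 8 libraries. A level above the counting limit was not detectable at this depth.

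*IREB2*, the iron regulatory protein that is degraded when iron is plentiful (ENSG00000136381, chromosome 15, positions 78437431 to 78501453), was among the steadiest members. It was at 91.0, 95.1 and 92.1 CPM in MDA-MB-231, 83.8, 93.9 and 98.1 CPM in HCC1954, 37.1, 52.6 and 58.9 CPM in OVCAR8, and 116, 102 and 107 CPM in SKOV3. OVCAR8 lay below the other lines, MDA-MB-231 and HCC1954 overlapped, and SKOV3 lay above both. The only ratio to EV above 1.2 was in OVCAR8, with 1.42 in *SIVA-WT* and 1.59 in *SIVA-D160N* (1.48 to 1.70). The fitted log2 fold change in *SIVA-D160N* vs EV was 0.19 (SE 0.12).

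**Figure D3:**
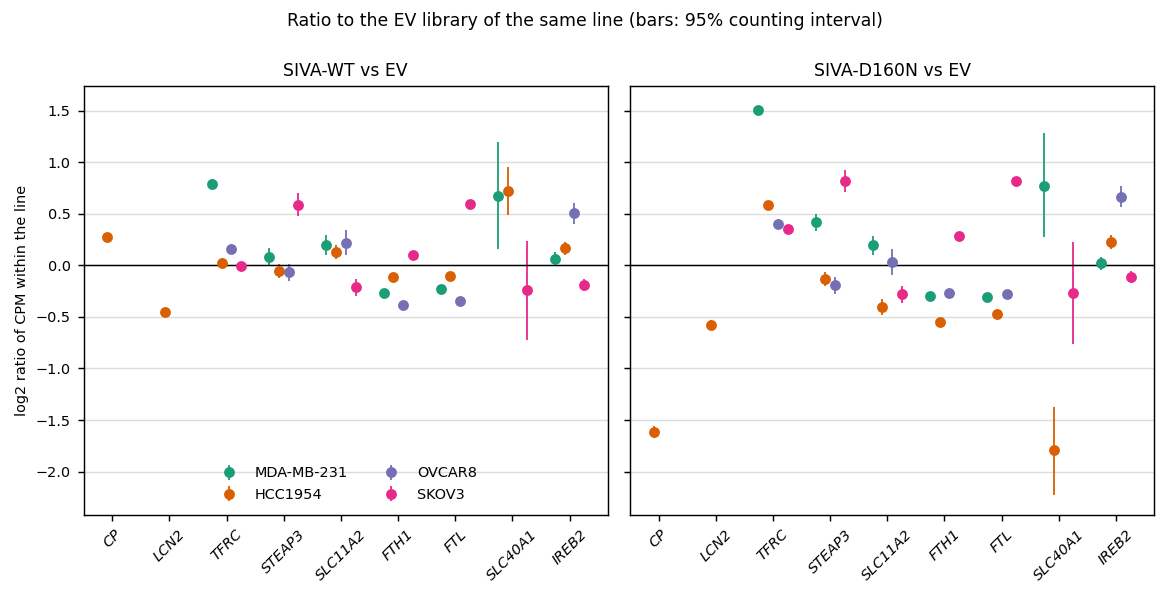
Log2 ratio of each member in *SIVA-WT* (left) and *SIVA-D160N* (right) to the EV library of the same line, with 95% counting intervals as bars, for ratios that rest on at least 50 counts. On the right, *TFRC* lies above 0 in all 4 lines, *CP* and *SLC40A1* of HCC1954 lie near -1.62 and -1.79, and the ferritin chains lie below 0 in 3 lines and above 0 in SKOV3.

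Compared per length, the members kept a broad order. In HCC1954 the mean over the 3 libraries was 2517 CPM per kb for *FTH1*, 1345 for *FTL*, 289 for *LCN2*, 204 for *TFRC*, 57.9 for *CP*, 20.6 for *STEAP3*, 18.0 for *SLC11A2*, 14.5 for *IREB2* and 1.71 for *SLC40A1*. There *LCN2* ranked above *TFRC* and *CP* next below it, while both were near 0 in the other lines. In the remaining lines *TFRC* came next after the ferritin chains, at 44.6 to 57.8 CPM per kb, with *STEAP3*, *SLC11A2* and *IREB2* between 7.14 and 17.1.

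A call needed an FDR under 0.05 (quasi-likelihood test of edgeR, adjusted after Benjamini and Hochberg) and a log2 fold change of 1.5 or more in size. In *SIVA-D160N* vs EV, 0 of the 9 tested members were called, beside 0.00581% of all genes. At an unadjusted p under 0.05 there were 2 of 9, *CP* and *TFRC*, beside 14.2% of all genes. In *SIVA-D160N* vs *SIVA-WT* the same 2 were below this threshold beside 6.88% of all genes, and in *SIVA-WT* vs EV there were 0 of 9 beside 2.54%. In the latter 2 contrasts 0 of 9 members were called, beside 0% of all genes. DESeq2, with p-values for all 10 members and 34909 genes, gave 2, 2 and 0 members at p under 0.05 in the same order. Beside them stood 2448, 1162 and 444 of all genes. It called 0 members in each, beside 18, 2 and 5 of all genes. Since these contrasts helped choose the members, nothing is read from the counts.

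Between lines, the members that passed the FDR and fold against the mean of the other 3 lines were 4 of 9 in HCC1954, beside 25.6% of all genes, and all 4 were higher there (*CP*, *LCN2*, *TFRC* and *SLC40A1*), beside 14.7% of all genes called higher. There were 3 of 9 in MDA-MB-231 (*SLC40A1* higher, *LCN2* and *FTH1* lower) beside 22.6%. OVCAR8 had 3 of 9 lower (*CP*, *LCN2* and *SLC40A1*) beside 22.8% called and 9.03% called lower, and SKOV3 had 3 of 9 (*FTH1* and *SLC40A1* higher, *CP* lower) beside 23.4%. A high gene in 1 line lowers each of the others in such a contrast, and the 0 counts of OVCAR8 raise the *SLC40A1* values of the others. The members were selected on differences between these lines, and *CP* and *LCN2* passed the filter through HCC1954. Nothing is therefore read from the numbers of members called. The fitted log2 difference of *TFRC* in HCC1954 was 2.05 (SE 0.14), and that of *FTH1* in SKOV3 was 2.65 (SE 0.11).

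Beyond the members, 69 genes of iron metabolism were listed by role, of which 57 passed the filter on low counts. In *SIVA-D160N* vs EV, 0 of the 57 passed the FDR and fold by edgeR, and 5 had an unadjusted p under 0.05 (8.77%, beside 14.2% of all genes). DESeq2, run without that filter, gave p-values for 66 of the listed genes. Of the 66, 0 passed the FDR and fold and 4 had a p under 0.05, beside 2448 of all 34909 genes with a p-value. The median log2 fold change of the 57 was 0.00, beside -0.01 for all genes. *EPAS1*, the hypoxia factor HIF-2 alpha, was lower by a fitted log2 of -0.64 (SE 0.19, FDR 0.211 by edgeR), and *PROM2*, prominin 2, by -0.53 (SE 0.17, FDR 0.235). *NCOA4*, the receptor that delivers ferritin to lysosomes, had 0.21 (SE 0.09, FDR 0.330). The value of *EPAS1* was -0.36 without MDA-MB-231, and that of *PROM2* was -0.33 without HCC1954.

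Of these 5, 2 were neighbors in heme synthesis with values of opposite sign. *CPOX*, coproporphyrinogen oxidase, had a log2 fold change of 0.37 (SE 0.12, FDR 0.235 by edgeR) and was higher than in EV in 4 of 4 lines, for example at 31.9, 42.9 and 49.1 CPM in EV, *SIVA-WT* and *SIVA-D160N* of MDA-MB-231. *PPOX*, protoporphyrinogen oxidase, which takes the next step, had -0.30 (SE 0.11, FDR 0.270) and was lower in 4 of 4 lines. Its levels in EV and *SIVA-D160N* were 18.9 and 13.7 CPM in MDA-MB-231, and 19.0 and 14.2 CPM in OVCAR8.

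Set against *SIVA-WT*, the mutant had 3 of the 57 with a p under 0.05 by edgeR, beside 6.88% of all genes. DESeq2 had 2 of 66, beside 1162 of 34909 genes. By either tool 0 passed the FDR and fold. The 3 found by edgeR had lower values in the mutant in every line where they were counted. *SLC22A17*, the receptor of lipocalin 2, was lower by -0.69 (SE 0.28, FDR 0.725 by edgeR), *PROM2* by -0.45 (SE 0.17, FDR 0.719) and *PPOX* by -0.26 (SE 0.11, FDR 0.725). In *SIVA-WT* vs EV there were 0 of 57 by edgeR at p under 0.05, beside 2.54% of all genes. DESeq2 had 0 of 66, beside 444 of 34909 genes. Without HCC1954, the value of *SLC22A17* was -0.29 and that of *PROM2* was -0.26. The 16 tested genes of mitochondrial iron and iron-sulfur clusters had 0 with a p under 0.05 in this contrast by edgeR. Their median log2 fold change was 0.01 in *SIVA-D160N* vs EV, -0.08 in *SIVA-WT* vs EV and 0.10 between mutant and wild type.

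**Figure D4:**
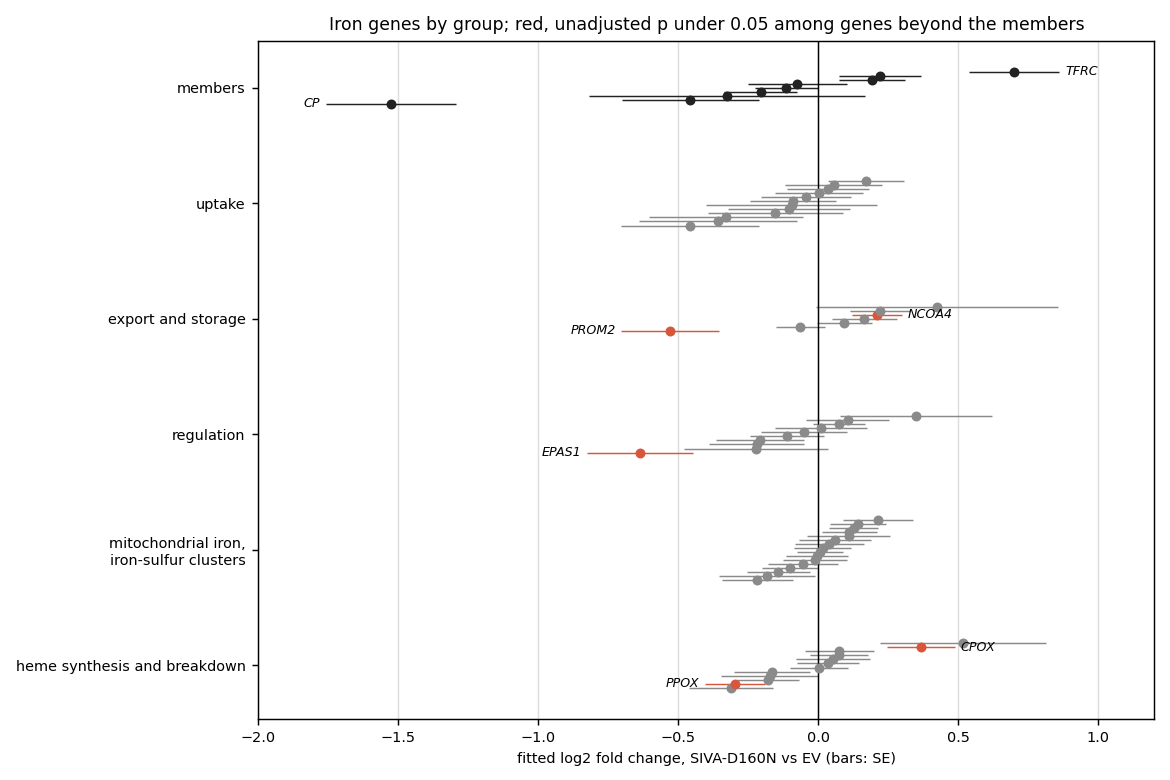
Fitted log2 fold change of *SIVA-D160N* vs EV over 4 lines on the horizontal axis, with SE as bars, for the 9 tested members and the 57 other tested iron genes in rows by role. Red points are those of the 57 others with an unadjusted p under 0.05, whose FDR was 0.211 or more. *CP* at -1.53 and *TFRC* at 0.70 lie outside the range of the 57 others, -0.64 to 0.52. The members were selected on such differences, so nothing is read from that position.

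Lines differed in the other iron genes about as often as in all genes, with 12, 13, 11 and 14 of the 57 past the FDR and fold in MDA-MB-231, HCC1954, OVCAR8 and SKOV3, beside the shares of all genes given above. The 3 libraries of a line are versions of 1 line, so the FDR values between lines compare these cultures only. *STEAP4*, a metalloreductase related to *STEAP3*, was at 531, 730 and 593 CPM in the HCC1954 libraries and at most 0.172 CPM elsewhere. It did not pass the filter, since 3 libraries were too few, and was picked out after its values were seen. *STEAP2*, of the same family, was low in HCC1954 instead, with 1 to 3 counts (log2 difference -7.39, SE 0.40, FDR 2.18e-08 by edgeR). *PROM2* at 197 to 363 CPM and *EPAS1* at 114 to 169 CPM were highest in HCC1954, by 7.94 (SE 0.16, FDR 2.04e-11) and 4.16 (SE 0.16, FDR 1.23e-09). SKOV3 came next in both, at 15.4 to 22.0 CPM of *PROM2* and 26.1 to 37.6 CPM of *EPAS1*.

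OVCAR8, the line without ferroportin counts, was highest in *TFR2*, the second transferrin receptor, at 19.0 to 22.2 CPM (log2 difference 7.94, SE 0.28, FDR 1.49e-08 by edgeR), and in *SLC22A17* at 19.6 to 24.0 CPM (6.09, SE 0.29, FDR 1.11e-07). The 0 counts of *TFR2* in SKOV3 and of *SLC22A17* in MDA-MB-231 raise these differences. The next highest lines were HCC1954 in *TFR2*, at 1.49 to 1.66 CPM, and SKOV3 in *SLC22A17*, at 3.57 to 5.03 CPM. OVCAR8 was lowest in *FECH*, ferrochelatase, at 12.1 to 12.7 CPM (-1.71, SE 0.12, FDR 2.21e-07). MDA-MB-231 was highest in *ACO1*, the other iron regulatory protein, at 168 to 225 CPM (1.69, SE 0.08, FDR 1.70e-08). SKOV3 was highest in *LRP1*, a receptor of heme bound to hemopexin, at 299.6 to 508 CPM (4.43, SE 0.18, FDR 4.74e-09), and in *BMP2* (4.79, SE 0.22, FDR 9.68e-09), a ligand that can induce hepcidin. *BMP2* was at 8.20 to 9.73 CPM in SKOV3 and 3.43 to 6.37 CPM in HCC1954. In MDA-MB-231 and OVCAR8 it was at most 0.131 CPM, which raises the difference.

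Within single lines, few other iron genes differed from EV by a factor of 2 or more in *SIVA-D160N*. In SKOV3, *HMOX1*, heme oxygenase 1, which frees iron from heme, was at 23.2, 76.7 and 97.3 CPM in EV, *SIVA-WT* and *SIVA-D160N*. It was 4.19 times EV in the last (3.89 to 4.51). In the other 3 lines its ratio was 0.951 to 1.15. In HCC1954, *SLC48A1*, a heme transporter, was 3.24-fold lower than EV (3.0 to 3.49) and 2.49-fold lower than *SIVA-WT*, and *BLVRA*, biliverdin reductase A, was 2.02-fold lower than EV and 1.88-fold lower than *SIVA-WT*. *EPAS1* was 2.58-fold lower in MDA-MB-231. Of the members, *CP* and *SLC40A1* were at least 2-fold lower in HCC1954, beside 5.59% of all genes with enough counts there, and *TFRC* was at least 2-fold higher in MDA-MB-231, beside 1.26%.

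*CP* and *LCN2* are also acute phase genes, so 27 other genes of that response were read beside them, of which 16 were tested. In HCC1954, 9 of the 16 were called, beside 25.6% of all genes. Of the 9, 8 were higher, among them *FGB*, *SAA1* and *SERPINA1*, beside 14.7% of all genes called higher. The list was read because *CP* and *LCN2* were high in that line, and genes near 0 elsewhere passed the filter through it, so nothing is read from this count. *FGB*, the fibrinogen beta chain, was at 31.4, 51.8 and 9.56 CPM in EV, *SIVA-WT* and *SIVA-D160N* of HCC1954, in the order of *CP*. It was 3.28-fold lower in the mutant than in EV (2.91 to 3.71) and 5.42-fold lower than in *SIVA-WT* (4.83 to 6.10). In SKOV3 *FGB* had the other sign, with 12, 184 and 220 counts. *C3*, the central complement component, had 155, 168 and 20 counts in HCC1954, while *SAA1* had 119, 76 and 89.

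Of the factors that drive this response, those named here had mixed values in *SIVA-D160N* vs EV. *CEBPB* was lower in 4 of 4 lines, by a log2 fold change of -0.54 (SE 0.19, FDR 0.262 by edgeR), and *IL6R* was higher in 3 of 4 lines, by 0.46 (SE 0.19, FDR 0.305). Without MDA-MB-231 the value of *CEBPB* was -0.23, and without HCC1954 that of *IL6R* was 0.21. *IL6* itself had 12, 69 and 111 counts in EV, *SIVA-WT* and *SIVA-D160N* of HCC1954 and 84, 20 and 17 in MDA-MB-231. In *SIVA-D160N*, *IL1A* was 9.79-fold lower than EV in MDA-MB-231, 8.10-fold lower in SKOV3 and 4.64 times EV in OVCAR8. *IL1B* was 5.92 times EV in OVCAR8, and in MDA-MB-231 it ran from 3.09 to 10.9 CPM over the conditions. Of the 16 genes, 2 had a p under 0.05, beside 14.2% of all genes.

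The genes most like *CP* were read off 2 correlations over the 12 libraries, given as a description. On log2 levels, *AGR2*, *AZGP1*, *TSTD1*, *TNFSF10* and *LRG1* had Pearson's r from 0.998 to 0.999, and such values rest on the 3 HCC1954 libraries standing above the other 9. *AGR2* was at 181, 154 and 73.5 CPM in EV, *SIVA-WT* and *SIVA-D160N* of HCC1954. After subtracting each line's mean, *COL26A1*, *TP53INP2*, *TMC4*, *FBLN2* and *GCNT4* had r from 0.985 to 0.992, which rests on the low mutant library of HCC1954. Among the members, *LCN2* came first on levels (0.992) and *SLC40A1* after subtracting the means (0.931), where *TFRC* had -0.446.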

How the data were processed

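Stranded poly(A) RNA libraries of 12 cultures, 1 per line and condition, were sequenced as read pairs. Per the labels and the paper, the authors aligned reads to GRCh38 with STAR 2.5.3a and deposited raw read counts per gene, and the annotation release is not given in the sources used here. Their CPM table was not used. All 12 columns were matched to samples. Total counts were 35791455 to 45890398, and 0 of 66 pairs of libraries were identical.

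Counts were fitted with edgeR 4.0.16 (R 4.3.3, TMM, genes filtered by condition) on condition and line. The 4 lines were thus the replicates, and level differences between lines were taken out by the line term. The p-values between conditions set the mean difference against how much that difference varied between lines. Line differences compared the 3 libraries of 1 line with the rest. Those 3 are versions of 1 line and not independent cultures, so these tests compare these cultures only. Libraries of 1 line deviated together (correlations 0.932 to 0.978), so line was kept as the block. On simulated counts of 16936 genes for *SIVA-D160N* vs EV, 98.5% of 130 genes changed by a log2 of 2 or 3 were called. In the same counts 6 unchanged genes were called. The percentage does not cover smaller differences, and the calling of differences confined to 1 line was not tested. DESeq2 1.42.0 was an alternative, as were other scalings and filters, no block, and leaving out each line.

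The members and gene lists were chosen with earlier results of these data known. Besides the members, genes named were drawn from iron and acute phase genes with a p under 0.05, the largest line differences or at least 2-fold ratios within a line. The 5 most correlated with *CP* on each scale were also named. Values of *FGB*, *C3*, *SAA1* and *IL6* outside those comparisons were picked after they were seen. Gene positions and transcript lengths came from RefSeq and GENCODE annotation.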

Additional observations from a re-analysis of the deposited data

Results flagged for a closer look

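In sets of 4 libraries, 1 per line, a value was picked out where its gap to the nearest other exceeded Dixon's critical share of the whole range at 95%. Of 71 sets checked, 16 values were picked out. The members were selected on differences between these lines, so that number is not set against what chance gives, and no explanation was tested.

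*CP* in HCC1954 stood apart in each condition, at 305 CPM in EV, 368 CPM with *SIVA-WT* and 99.6 CPM with *SIVA-D160N*. Its log2 ratio, here with 1 CPM added to each level, was also apart in that line, at -1.61 for *SIVA-D160N* vs EV and -1.88 for *SIVA-D160N* vs *SIVA-WT*. *LCN2* in HCC1954 was apart at 296, 217 and 199 CPM in EV, *SIVA-WT* and *SIVA-D160N*, and in its ratio of *SIVA-D160N* to EV (-0.57). *TFRC* was apart in the *SIVA-WT* library of HCC1954 (886 CPM).

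*SLC40A1* was apart in the *SIVA-D160N* library of OVCAR8, at 0 CPM, and in the ratio of *SIVA-D160N* to *SIVA-WT* in HCC1954 (-1.98). The ratio of *FTL* in *SIVA-D160N* vs EV was apart in SKOV3 (0.81). *IREB2* was apart in the *SIVA-WT* library of OVCAR8 (52.6 CPM). *HAMP* was picked out in the EV library of HCC1954 (0.024 CPM) and in the ratio of *SIVA-WT* to EV there (-0.034), both from 1 count.

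Whether condition effects differed between breast and ovarian lines was tested with an interaction term of edgeR. The FDR was adjusted over all genes that passed the filter and read for 80 genes of the lists, tested members included. The smallest FDR was 0.154 for *SIVA-D160N* vs EV, in the acute phase gene *FGB*, and 1 for *SIVA-WT* vs EV. The members were selected on differences between these lines and conditions, so nothing is read for them.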

How the results depend on the processing

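The number of other iron genes with a p under 0.05 moved with the settings. In *SIVA-D160N* vs EV it was 5, and it was 8 with no filter on low counts, 0 with no replicate block and 3 to 7 when each line was left out. In *SIVA-WT* vs EV it was 0, with 3 without the filter and 0 to 2 when each line was left out. In *SIVA-D160N* vs *SIVA-WT* it was 3, with 5 without the filter, 0 with no replicate block, and 0 to 5 when each line was left out (0 without HCC1954, 1 without OVCAR8 and 5 without SKOV3). The causes were not tested. The counts of iron genes called between lines stayed within 1.5 times their values in every setting run. Over the alternatives, the fitted log2 value in *SIVA-D160N* vs EV ranged from -1.61 to -1.37 for *CP* and from 0.45 to 0.82 for *TFRC*, and *CP* and *LCN2* could not be fitted without HCC1954. Of 291 alternative values of the members between conditions, 14 changed sign. Of 110 alternative values of the named iron and acute phase genes between conditions, 35 were no longer under p of 0.05, 11 of them with no replicate block, and 0 changed sign. Depth limits *HAMP* everywhere and *CP* and *LCN2* outside HCC1954, and with 1 library per line and condition no ratio within a line has a replicate check.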
